A study of Mus musculus with 28 samples.

Results

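Transcripts of glucose transport, glycolysis, the pyruvate dehydrogenase complex and the citric acid cycle were followed in mouse hearts. The 41 genes were a list of enzymes and transporters, with 19 genes of glucose transport and glycolysis, 5 of the pyruvate dehydrogenase complex and 17 of the citric acid cycle. Of these, 38 were read by at least 1 tested probe set, out of 18193 genes so named on the array, and they had 88 tested probe sets in all. Total RNA from frozen hearts of 28 mice was hybridised to 1-colour arrays in 4 groups of 7. The groups were del337TR mice given WY14643, control mice given WY14643, untreated del337TR mice and untreated control mice. The label del337TR stands for a deletion strain in a series on resistance to thyroid hormone, and WY14643 is an activator of the nuclear receptor PPARalpha. The labels gave no dose, duration, age or genetic background, and did not say in which cells the deletion is present.

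Glucose enters the heart muscle cell through GLUT transporters, is trapped by hexokinase and is cut by glycolysis to pyruvate. The pyruvate dehydrogenase complex turns pyruvate into acetyl-CoA inside mitochondria, and the citric acid cycle oxidises acetyl-CoA to feed the respiratory chain. The adult heart burns mostly fatty acids, and PPARalpha raises the genes that favour them, among them kinases that switch the pyruvate dehydrogenase complex off. Thyroid hormone is known to act on heart metabolism and on the myosin heavy chain genes Myh6 and Myh7.

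A few features of the arrays bear on the values below. Every array had been scaled to the same 2% trimmed mean signal of 250, while the median signal ran from 60 to 77.8. Cardiomyocyte markers summed to between 128242 and 210705.7, with none of the 11 at 0, which fits the label of heart tissue. The 3 atrial markers summed to 183 to 33331.2 in treated del337TR hearts, 182.1 to 17132.7 in treated controls, 1201.8 to 31988.7 in untreated del337TR hearts and 116.4 to 22427.1 in untreated controls. The groups held 1, 3, 4 and 2 females, in the same order. Xist and Eif2s3y were read for this. Myh7, the slow myosin heavy chain, set 5 arrays apart. It stood at 6007, 4239.9, 3920.7 and 4519.7 in replicates 1, 4, 6 and 7 of the treated controls and at 3102.7 in replicate 7 of the untreated controls. On the other 23 arrays it was above 10000. Nppa, the atrial natriuretic peptide gene, stood at 2837.7, 4703.4, 4451.9 and 3877 on the same treated control arrays and at 12384.5 on the untreated one, where the untreated controls ran from 8190.7 to 13205.1. Fibroblast markers, all 7 measured and none at 0, summed to 18499.1 to 22538.7 in treated del337TR hearts, 16350.7 to 21175.5 in treated controls, 19272.8 to 24414.6 in untreated del337TR hearts and 16889.7 to 21644.9 in untreated controls. Results that turn on these arrays are given with and without them. The choice to leave them out was made after the data were seen, from Myh7 alone, and left 3 treated and 6 untreated controls. The 3′ to 5′ ratio of the actin control probe sets, a sign of RNA quality, was 1.32, 1.39, 1.43 and 1.82 on these treated control arrays, against 1.19, 1.21 and 1.36 on the other 3. It was 1.52 on the untreated one, against at most 1.26 in the rest of its group. It ran from 1.09 to 1.34 in treated del337TR hearts and from 1.17 to 1.37 in untreated ones. Its part in the results was not tested. Whether the labels of these 5 arrays are right was not tested either, so every value of the control groups is that of the arrays so labelled.

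No member passed the threshold of 0.05 for limma's adjusted p in any of the 5 comparisons. The counts were 0 of 38 for del337TR against control without WY14643, where 0.00222% of the 45037 probe sets passed, and 0 of 38 in each other comparison, where 0% of the probe sets passed. At an unadjusted p under 0.05, limma called 0 of 38 members for strain without WY14643. The share was 4.01% of the probe sets and 0.995% of the 402 bright genes described below, whose range of signals holds 28 members. For WY14643 in controls limma called 7 members (18.4%), against 6.75% of the probe sets and 15.9% of the bright genes. It called 0 for WY14643 in del337TR, against 5.78% and 1.24%. It called 4 members (10.5%) for strain under WY14643, against 8.86% and 10.7%. For the interaction, the WY14643 effect in del337TR less that in controls, it called 0, against 4.9% and 1.24%. Called members below the bright range were Pfkp and Dlat for WY14643 in controls. For strain under WY14643 they were Slc2a4, Hk1 and Dlat. The shares of members and of bright genes are thus of unlike sets. Standard errors of the members' log2 differences ran from 0.06 for Pkm to 0.18 for Idh3b, so small differences were not resolved. In whole tissue, fewer cells of a type and less RNA per cell cannot be told apart.

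Most members stood slightly higher with WY14643, as did most genes with signals in the range of the brighter members. In controls 35 of 38 members were higher with WY14643, with a median log2 difference of 0.12, against a median of -0.03 over all 18193 genes. The 402 genes with mean signals from 4184 to 13298, of which 28 were members, had a median of 0.11, and 87.3% of them were higher. With quantile normalization the members' median was 0.02 and 21 of 38 were higher, and that of the bright genes was 0.00. In del337TR hearts 33 of 38 members were higher with WY14643, with a median of 0.05 beside 0.04 for the bright genes. Between strains 10 of 38 members were higher in del337TR under WY14643 (12 after quantile normalization, 5 with arrays centred on their medians) and 25 of 38 without it (14 after quantile normalization, 26 with centring). Of the bright genes 39.3% were higher in del337TR under WY14643, with a median of -0.03. Without WY14643 85.6% of them were higher, with a median of 0.05. For the interaction 9 of 38 were above 0, with a median of -0.08, equal to that of the bright genes, against 18 after quantile normalization and 2 with centring. In del337TR hearts the count of 33 with WY14643 was 24 after quantile normalization and 27 with centring. The part of array scaling in these medians was not tested beyond these settings.

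Over all arrays the 3 sections of the pathway gave the same median for WY14643 in controls. Glucose transport and glycolysis, the pyruvate dehydrogenase complex and the citric acid cycle each stood at 0.12, with 13 of 16, 5 of 5 and 17 of 17 members higher. The medians were 0.11, 0.00 and 0.11 without the 5 arrays of low Myh7. For WY14643 in del337TR hearts each stood at 0.05, with 15 of 16, 5 of 5 and 13 of 17 higher. The sections lay further apart between strains, but the gaps between them were not tested. Between replicates, the SD of a section's median log2 signal was 0.09, 0.14 and 0.13. Under WY14643 the medians for del337TR against control were -0.03, -0.16 and -0.06, with 7 of 16, 0 of 5 and 3 of 17 higher. All genes had a median of 0.02 there and the 402 bright genes of -0.03. Without WY14643 all genes had a median of 0.00 and the bright genes of 0.05. The sections then stood at 0.04, -0.04 and 0.03, with 10 of 16, 1 of 5 and 14 of 17 higher. Quantile normalization turned the last of these to -0.03 and set the first to 0.00. The comparisons share groups, so a group that is high or low enters several of them. Without the 5 arrays of low Myh7 the sections stood at -0.04, 0.00 and -0.01 for del337TR against control under WY14643. There the 38 members together had 12 higher and a median of -0.02. For WY14643 in controls 31 of 38 members were then higher, with a median of 0.10, and no member had an unadjusted p under 0.05 in any comparison.

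**Figure D1:**
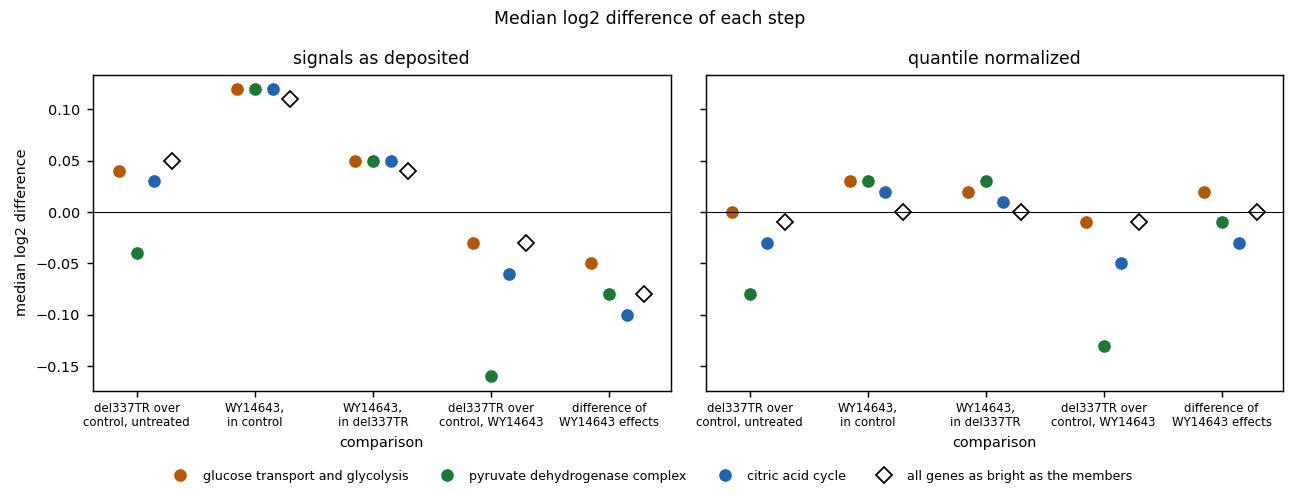
Median log2 difference (y axis) of each pathway section in the 5 comparisons (x axis), for signals as deposited and after quantile normalization. Open diamonds give the median of the 402 genes with mean signals from 4184 to 13298. The medians of 0.12 for WY14643 in controls lie beside a diamond at 0.11 and come near 0 after quantile normalization, while the pyruvate dehydrogenase complex stays lowest for del337TR against control under WY14643.

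**Figure D2:**
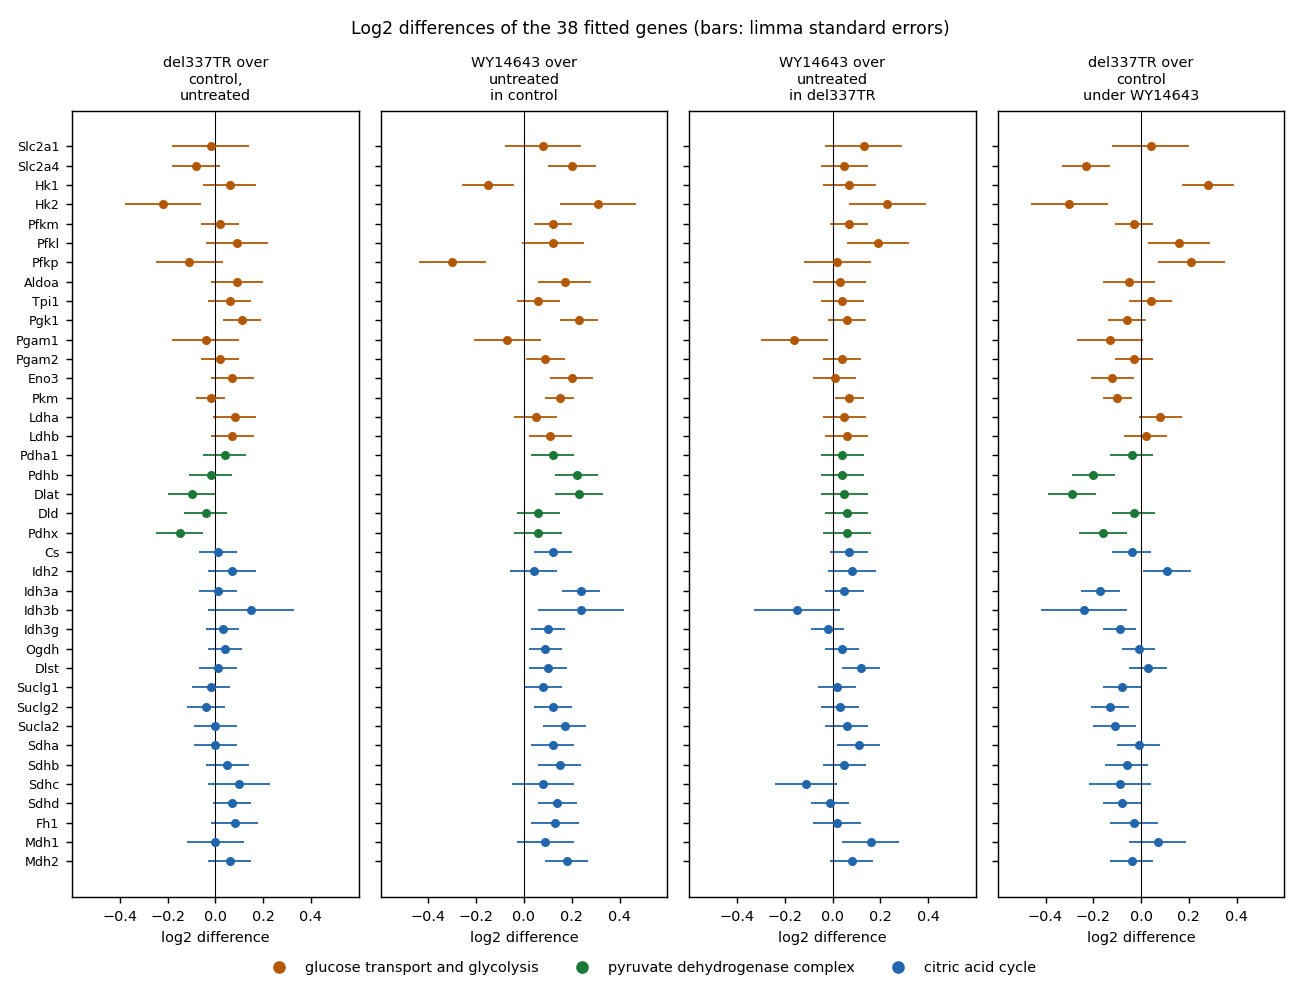
Log2 difference (x axis) of each of the 38 members (y axis) in the 4 comparisons of 2 groups. Points are limma estimates, bars 1 standard error either way, and colours the pathway sections. For WY14643 in controls nearly all points lie right of 0, with Pfkp at -0.30 and Hk2 at 0.31 the farthest out. No point passed the threshold.

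The glucose transporters came first in the order of the pathway. Slc2a4 encodes GLUT4, the insulin-responsive transporter of muscle. Its signal ran from 2654.4 to 3655.3 (median 3080.2) in treated del337TR hearts, against 2589.9 to 4597.3 (median 3751.6) in treated controls. It ran from 2794.4 to 3244 (median 2952.1) in untreated del337TR hearts and from 2819.8 to 3590.8 (median 3156.2) in untreated controls. The ranges overlapped, and the highest 3 signals of all were those of treated control replicates 6, 7 and 4, at 4597.3, 4076.8 and 3805.8. For del337TR against control under WY14643 the log2 difference was -0.23 ± 0.10 (SE of the fit over 7 arrays a group; limma adjusted p = 0.53), while it was -0.02 ± 0.12 without the 5 arrays of low Myh7. A second Slc2a4 probe set gave -0.27 ± 0.12 in that comparison and -0.25 ± 0.12 between the untreated strains. Slc2a1 encodes the basal transporter GLUT1. Its brightest probe set differed by no more than 0.13 ± 0.16 in either direction between any 2 groups compared. A dimmer Slc2a1 set differed more, at 147.4 to 306.1 (median 224) in treated del337TR hearts and 149.7 to 239.7 (median 175.7) in treated controls. In untreated controls it ran from 167.9 to 322.5 (median 215.4).

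The hexokinase genes stood apart in opposite directions on the same arrays. Hexokinase traps glucose as glucose 6-phosphate. Hk2 encodes the form that responds to insulin in muscle, and Hk1 the more widely expressed form. The core promoter of Hk2 is shown because it had the largest difference of the members for WY14643 in controls. It is given with those of the pyruvate dehydrogenase complex genes Dlat and Pdhb, which were high on the same arrays. Each is the RefSeq window of 250 bases before and 50 bases after the gene's start on GRCm38.p6, all on the minus strand: chr6:82774405-82774704 for Hk2, chr9:50659731-50660030 for Dlat and chr14:8172943-8173242 for Pdhb. Capitals mark ACGTG, the core of the hypoxia response element, on either strand.
Hk2: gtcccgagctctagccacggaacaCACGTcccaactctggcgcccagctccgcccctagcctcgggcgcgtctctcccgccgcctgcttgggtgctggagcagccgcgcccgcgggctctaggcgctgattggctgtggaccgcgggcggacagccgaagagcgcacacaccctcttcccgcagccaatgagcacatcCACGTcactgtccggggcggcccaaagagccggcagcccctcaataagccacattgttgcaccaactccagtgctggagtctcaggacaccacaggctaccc
Dlat: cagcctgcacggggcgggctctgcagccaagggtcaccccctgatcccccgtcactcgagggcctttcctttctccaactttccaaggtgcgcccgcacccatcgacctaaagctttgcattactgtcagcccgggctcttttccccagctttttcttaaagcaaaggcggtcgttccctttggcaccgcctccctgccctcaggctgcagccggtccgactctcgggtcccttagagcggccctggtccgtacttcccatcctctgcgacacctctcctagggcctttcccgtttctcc
Pdhb: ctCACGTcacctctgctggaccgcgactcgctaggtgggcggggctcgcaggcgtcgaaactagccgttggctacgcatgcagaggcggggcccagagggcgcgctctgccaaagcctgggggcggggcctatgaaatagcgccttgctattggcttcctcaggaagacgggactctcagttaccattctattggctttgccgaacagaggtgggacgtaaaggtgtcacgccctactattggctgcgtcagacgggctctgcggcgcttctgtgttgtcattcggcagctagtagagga
The Hk2 window held 2 matches, which began 226 and 52 bases before the start, the Pdhb window 1, which began 248 bases before it, and the Dlat window 0. Letters in a window do not show that a factor binds there.

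Among members with a promoter window, 38 of 41 genes had 53 windows. ACGTG stood in 41.5% of these, from 15 genes, against 19.6% of all 32851 windows. Several windows of 1 gene can overlap, so these shares are descriptions. The E-box CACGTG, which contains ACGTG, was found in 9.43% of members' windows and 7.15% of all windows. The CCAAT box was found in 56.6% and 37.4%. The nuclear receptor half-site AAGGTCA was found in 7.55% and 4.72%. The direct repeat known to bind PPARalpha with its partner, AGGTCANAGGTCA, was found in 0 of 53 and in 0.0396% of all windows, with both strands searched in each case.

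Hk2 signals ran from 1956.7 to 3154.9 (median 2557.9) in treated del337TR hearts, against 1979.3 to 4171.5 (median 3423.3) in treated controls. They ran from 1739.7 to 2420 (median 2261.5) in untreated del337TR hearts, against 1987.1 to 3566.9 (median 2426) in untreated controls. The treated controls fell into separate levels: replicates 1, 4, 6 and 7 stood at 3423.3, 3887.1, 4171.5 and 4059.4, and replicates 2, 3 and 5 at 1979.3, 2372.3 and 2530.7. Replicate 7 of the untreated controls, the highest of its group, stood at 3566.9. These were the 5 arrays of low Myh7, and no other array of the 28 had an Hk2 signal above 3154.9. The log2 difference was 0.31 ± 0.16 for WY14643 in controls (limma adjusted p = 0.753) and -0.30 ± 0.16 for del337TR against control under WY14643 (limma adjusted p = 0.612). Without the 5 arrays these were -0.04 ± 0.15 and 0.14 ± 0.15. In del337TR hearts, where no array was low in Myh7, WY14643 gave 0.23 ± 0.16 (limma adjusted p = 0.909).

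Hk1 had the reverse pattern. Its signal ran from 2979.7 to 3721.9 (median 3240.4) in treated del337TR hearts, against 2198.5 to 3328.1 (median 2809.3) in treated controls. In untreated hearts it ran from 2931.3 to 3574.1 (median 3079.5) in del337TR and from 2172.5 to 3694.4 (median 3153.8) in controls. Treated control replicates 1, 4, 6 and 7 had 2395.6, 2517, 2809.3 and 2198.5, and untreated control replicate 7 had 2172.5, which were the 5 lowest values of the 28. The log2 difference for del337TR against control under WY14643 was 0.28 ± 0.11 (limma adjusted p = 0.449), with 3 of 7 treated del337TR hearts above every treated control. It was 0.08 ± 0.10 without the 5 arrays. A second Hk1 probe set gave 0.32 ± 0.14 over all arrays.

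**Figure D3:**
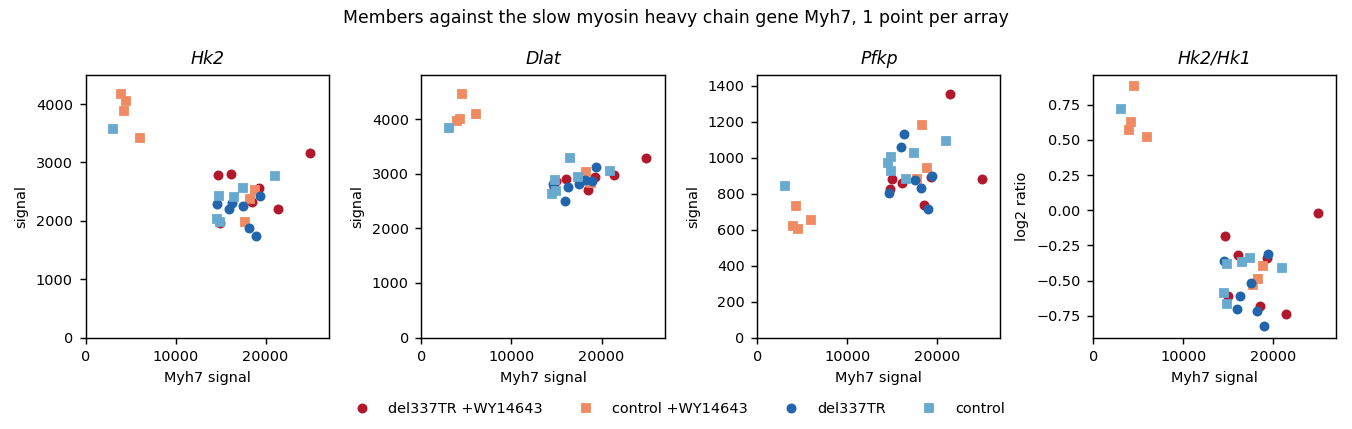
Signals of Hk2, Dlat and Pfkp and the log2 ratio of Hk2 to Hk1 (y axes) against the signal of Myh7 (x axis, linear), 1 point per array, coloured by group. The 4 treated control arrays and 1 untreated control array with Myh7 signals from 3102.7 to 6007 lie apart at the left, with Hk2 signals from 3423.3 to 4171.5.

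Phosphofructokinase, the committed step of glycolysis, is read by its muscle (Pfkm), liver (Pfkl) and platelet (Pfkp) subunits. Pfkp ran from 736.1 to 1354 (median 880.7) in treated del337TR hearts, against 603.7 to 1180.9 (median 733.2) in treated controls. In untreated hearts it ran from 716.8 to 1129.4 (median 878.6) in del337TR and from 844.3 to 1091.7 (median 969.9) in controls. Treated control replicates 1, 4, 6 and 7 stood at 653.9, 733.2, 622.6 and 603.7, below every untreated control. The log2 difference for WY14643 in controls was -0.30 ± 0.14 (limma adjusted p = 0.739), and 0.02 ± 0.16 without the 5 arrays of low Myh7. A dim Pfkp probe set with signals from 8.7 to 88.4 stood at 1.20 ± 0.44 for del337TR against control under WY14643, where the brightest one stood at 0.21 ± 0.14. Between any 2 groups compared, the brightest sets of Pfkm and Pfkl differed by no more than 0.12 ± 0.08 and 0.19 ± 0.13.

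In the lower part of glycolysis the largest differences came with WY14643 in controls. Pgk1 encodes phosphoglycerate kinase, which makes the first ATP of the pathway. Its signal ran from 9887.8 to 11659.1 (median 10379.9) in treated controls, against 7606.8 to 10586.4 (median 8754.7) in untreated controls. The ranges overlapped, with 2 of 7 treated hearts above every untreated one. The log2 difference was 0.23 ± 0.08 (limma adjusted p = 0.698), was 0.20 ± 0.08 on a second probe set, and was 0.10 after quantile normalization. Unlike Hk2 and Pfkp it was nearly the same without the 5 arrays of low Myh7, at 0.22 ± 0.12.

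Eno3, the muscle enolase, ran from 9261.1 to 12488.9 (median 9892.5) in treated controls, against 7313.8 to 10732.9 (median 8802.3) in untreated controls. The highest value, in replicate 7, was the only treated one above every untreated control. Its log2 difference of 0.20 ± 0.09 (limma adjusted p = 0.74) was 0.05 after quantile normalization. Pkm, the pyruvate kinase gene of muscle, ran from 5342 to 6221.3 (median 5616.8) in treated controls, against 4388.1 to 5567 (median 5180.5) in untreated controls. Here 4 of 7 treated hearts lay above every untreated one. The log2 difference was 0.15 ± 0.06 (limma adjusted p = 0.726), 0.07 after quantile normalization and 0.09 ± 0.09 without the 5 arrays.

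Other glycolytic members gave small differences. Pgam1, the widely expressed phosphoglycerate mutase, had the lowest difference of the section for WY14643 in del337TR, at -0.16 ± 0.14, with signals from 833.5 to 2095 in treated del337TR hearts and from 1276.7 to 1747.4 in untreated ones. Its muscle partner Pgam2 stood at 0.04 ± 0.08 there. Aldoa (aldolase) stood at 0.17 ± 0.11 and Tpi1 (triose phosphate isomerase) at 0.06 ± 0.09 for WY14643 in controls. Ldha and Ldhb, the subunits of lactate dehydrogenase, lay between 0.02 ± 0.09 and 0.11 ± 0.09 in all 4 comparisons of 2 groups. Gapdh, glyceraldehyde 3-phosphate dehydrogenase, is read here only by control probe sets of the array, which were left out of the tests. Its 3′ control set had medians of 12541.7 in treated del337TR hearts, 12335.8 in treated controls, 11693.2 in untreated del337TR hearts and 11766.8 in untreated controls. Gpi1 and Eno1 were not analysed here.

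**Figure D4:**
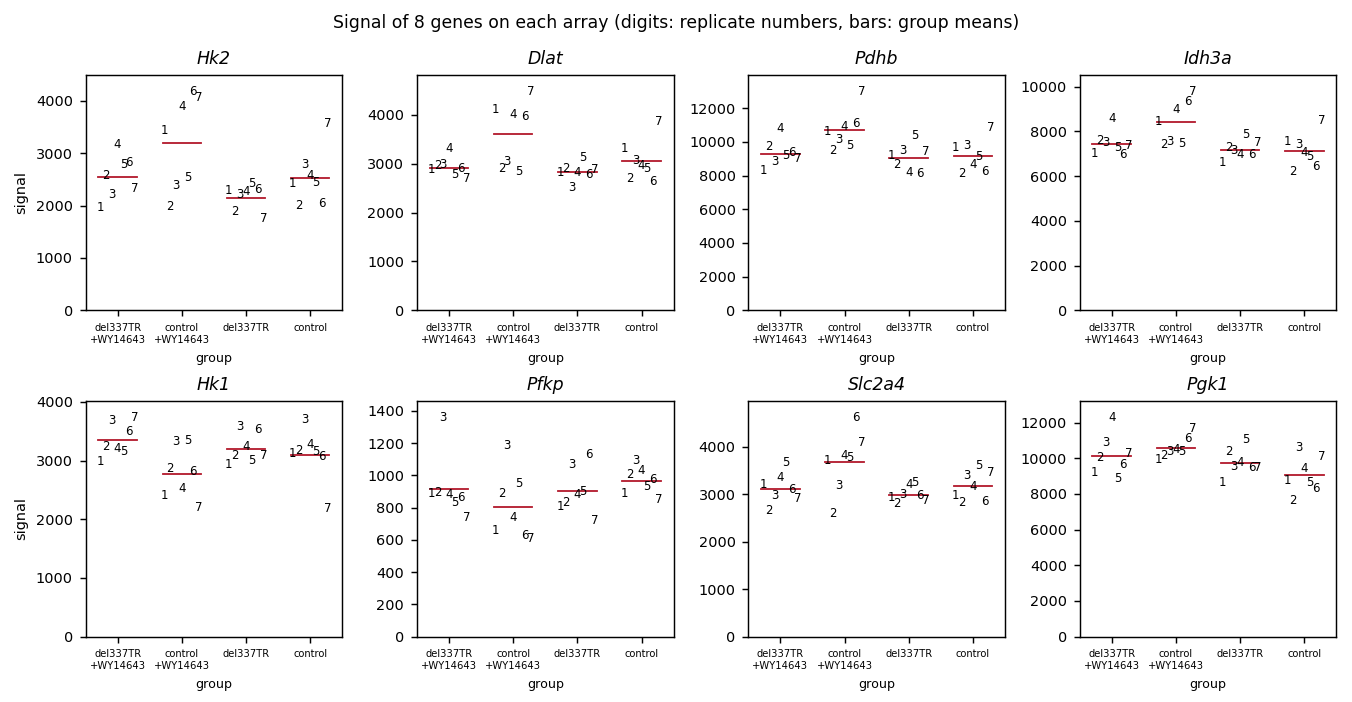
Signals (y axis, linear, from 0) of 8 members on each of the 28 arrays, by group (x axis). Each digit is the replicate number of 1 array and each bar a group mean. In the treated controls, Hk2 and Dlat have replicates 1, 4, 6 and 7 above replicates 2, 3 and 5, and Pfkp has the same 4 below them.

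All 5 genes of the pyruvate dehydrogenase complex stood lower in del337TR than in control under WY14643 over all arrays, which did not hold without the 5 arrays of low Myh7. Dlat encodes its E2 core, which passes the acetyl group to coenzyme A. Its signal ran from 2695 to 3290.8 (median 2896.6) in treated del337TR hearts, against 2825.1 to 4463.4 (median 3961.6) in treated controls. It ran from 2495.7 to 3121.3 (median 2810.6) in untreated del337TR hearts, against 2630.6 to 3842.6 (median 2947.7) in untreated controls. Treated control replicates 1, 4, 6 and 7 stood at 4102.3, 4000.5, 3961.6 and 4463.4, above all other arrays, and untreated control replicate 7 had 3842.6, above the remaining 23. Replicates 2, 3 and 5 stood at 2885.2, 3033.7 and 2825.1. The log2 difference was -0.29 ± 0.10 for del337TR against control under WY14643 (limma adjusted p = 0.438) and 0.23 ± 0.10 for WY14643 in controls (limma adjusted p = 0.735). Both were 0.00 without the 5 arrays of low Myh7, with standard errors of 0.09 and 0.10. The other Dlat probe sets gave -0.20 ± 0.09 and -0.36 ± 0.14 for strain under WY14643 over all arrays.

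Pdhb, the beta subunit of the E1 enzyme that decarboxylates pyruvate, ran from 8268.4 to 10730.7 (median 9158.4) in treated del337TR hearts, against 9460.6 to 12954.8 (median 10570) in treated controls. It ran from 8072.6 to 10322.2 (median 9151.8) in untreated del337TR hearts and from 8085.9 to 10797 (median 9074.4) in untreated controls. The treated controls stood highest, and 5 of 7 treated del337TR hearts lay below every treated control. The log2 difference was -0.20 ± 0.09 for del337TR against control under WY14643 (limma adjusted p = 0.505) and 0.22 ± 0.09 for WY14643 in controls (limma adjusted p = 0.698). Without the 5 arrays these were -0.08 ± 0.10 and 0.14 ± 0.10, and after quantile normalization the second was 0.09. Pdha1, the regulated alpha subunit of E1, and Dld, the E3 enzyme, stood at -0.04 ± 0.09 and -0.03 ± 0.09 for strain under WY14643. Pdhx, which anchors E3 to the core, stood at -0.16 ± 0.10 there and at -0.15 ± 0.10 between the untreated strains. For strain under WY14643 Pdha1, Dld and Pdhx stood at -0.02 ± 0.12, 0.09 ± 0.11 and 0.01 ± 0.12 without the 5 arrays. For WY14643 in del337TR all 5 genes lay between 0.04 and 0.06, each with a standard error of at least 0.09.

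In the citric acid cycle all 17 members were measured. Idh3a, the catalytic subunit of NAD-dependent isocitrate dehydrogenase, had the lowest unadjusted p of all members for WY14643 in controls. Its signal ran from 7384.3 to 9759.5 (median 8410.7) in treated controls, against 6186.7 to 8446.3 (median 7014.7) in untreated controls, with 3 of 7 treated hearts above every untreated one. In del337TR it ran from 6937.8 to 8535 (median 7334.2) in treated hearts, against 6570.5 to 7844 (median 7122.7) in untreated ones. The log2 difference for WY14643 in controls was 0.24 ± 0.08 (limma adjusted p = 0.698). It was 0.11 after quantile normalization and 0.12 ± 0.09 without the 5 arrays of low Myh7, since treated control replicates 1, 4, 6 and 7 stood at 8410.7, 8976.9, 9293.1 and 9759.5 and the other 3 at 7384.3 to 7546.6. For del337TR against control under WY14643 the brightest Idh3a probe set stood at -0.17 ± 0.08, and at -0.01 ± 0.09 without the 5 arrays of low Myh7. Over all arrays others stood at -0.42 ± 0.12 (limma adjusted p = 0.404) and -0.34 ± 0.13. On the set at -0.42 the signals ran from 1531.1 to 2063.2 (median 1960.6) in treated del337TR hearts, against 2012.6 to 3244.6 (median 2407.8) in treated controls, and 5 of 7 lay below every treated control. A further Idh3a set did not share these differences. It ran from 484.9 to 878.4 (median 698.4) in treated del337TR hearts and from 577.9 to 999.7 (median 628.1) in treated controls. In untreated controls that set ran from 561.9 to 820.5 (median 636.1). Values without the 5 arrays were taken for the brightest set only.

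Idh3b, a regulatory subunit of the same enzyme, had the widest spread of the members. It ran from 4219.7 to 9345.4 in treated del337TR hearts, against 5768.2 to 9582.1 in treated controls, and its residual SD was 0.34 on the log2 scale. Its interaction value was the farthest from 0 of all members at -0.39 ± 0.25 (limma adjusted p = 0.956). The third subunit, Idh3g, stood at -0.12 ± 0.11 there. Idh2, the mitochondrial NADP-dependent isocitrate dehydrogenase, had the highest difference of the section between strains under WY14643, at 0.11 ± 0.10.

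The other enzymes of the cycle stayed within small differences of each other. Cs, citrate synthase, which starts the cycle, stood at 0.12 ± 0.08 for WY14643 in controls and at 0.07 ± 0.08 in del337TR. Ogdh and Dlst, the E1 and E2 parts of the oxoglutarate dehydrogenase complex, stood at 0.09 ± 0.07 and 0.10 ± 0.08 with WY14643 in controls and at 0.04 ± 0.07 and 0.12 ± 0.08 in del337TR. The succinyl-CoA ligase subunits Suclg1, Suclg2 and Sucla2 stood at 0.08 ± 0.08, 0.12 ± 0.08 and 0.17 ± 0.09 with WY14643 in controls. Sdha to Sdhd, the 4 subunits of succinate dehydrogenase, lay between 0.08 ± 0.13 and 0.15 ± 0.09 in that comparison. Fh1, fumarase, stood at 0.13 ± 0.10, and the malate dehydrogenases Mdh1 (cytosolic) and Mdh2 (mitochondrial) at 0.09 ± 0.12 and 0.18 ± 0.09. Mdh1 was the member of the section highest with WY14643 in del337TR, at 0.16 ± 0.12, with 8783.6 to 17286.9 in treated del337TR hearts and 10034.3 to 13348.4 in untreated ones.

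Dim second probe sets of this section gave larger values that the bright ones did not share. One for Sdha, with signals from 3.1 to 9.9 (median 9) in untreated del337TR hearts and 2.4 to 5.4 (median 3.7) in untreated controls, stood at 0.97 ± 0.26 (limma adjusted p = 0.992). Its bright set, with signals of 6699.4 and above, stood at 0.00 ± 0.09. A pair of Dlst sets went opposite ways between the untreated strains, at -0.71 ± 0.33 with signals of at most 16 and at 0.45 ± 0.22 with signals of at most 132.5, while the bright set stood at 0.01 ± 0.08.

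Ratios of genes that do the same step were taken within each array, which removes a scaling factor common to all its signals. Such a ratio does not remove a shift that depends on brightness, and Pfkm (mean signal 7211.8) is brighter than Pfkp (897.05). The ratios were not rerun after quantile normalization. Of 7 pairs in 4 comparisons, 28 exact two-sided permutation tests in all, 2 had an unadjusted p under 0.05 and 0 after Benjamini-Hochberg adjustment. The log2 ratio of Pfkm to Pfkp was 3.27 ± 0.34 in treated controls and 2.85 ± 0.14 in untreated controls (SD, n = 7 each), a difference of 0.42 (exact permutation p = 0.0105, adjusted p = 0.294). It was 0.14 without the 5 arrays of low Myh7 and 0.51 without treated control replicate 3 alone, where the adjusted exact permutation p was 0.0163. The log2 ratio of Hk2 to Hk1 was -0.41 ± 0.27 in treated del337TR hearts and 0.17 ± 0.61 in treated controls (SD, n = 7 each), a difference of -0.58 (exact permutation p = 0.0449, adjusted p = 0.628). In treated controls it was 0.52, 0.63, 0.57 and 0.88 in replicates 1, 4, 6 and 7, and -0.53, -0.49 and -0.40 in replicates 2, 3 and 5. Untreated control replicate 7 had 0.72, and every other array was below 0. Without the 5 arrays the difference was 0.06.

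The ratios of the other pairs differed less. Slc2a4 to Slc2a1 gave its largest difference, -0.26 ± 0.16 (SE), for del337TR against control under WY14643, and Pgam2 to Pgam1 gave 0.20 ± 0.16 for WY14643 in del337TR. Pfkm to Pfkl differed by -0.19 ± 0.14 for strain under WY14643. Ldhb to Ldha, which sets the balance of heart and muscle lactate dehydrogenase subunits, differed by no more than 0.06, and Sucla2 to Suclg2, the ATP-forming over the GTP-forming succinyl-CoA ligase, by no more than 0.04.

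**Figure D5:**
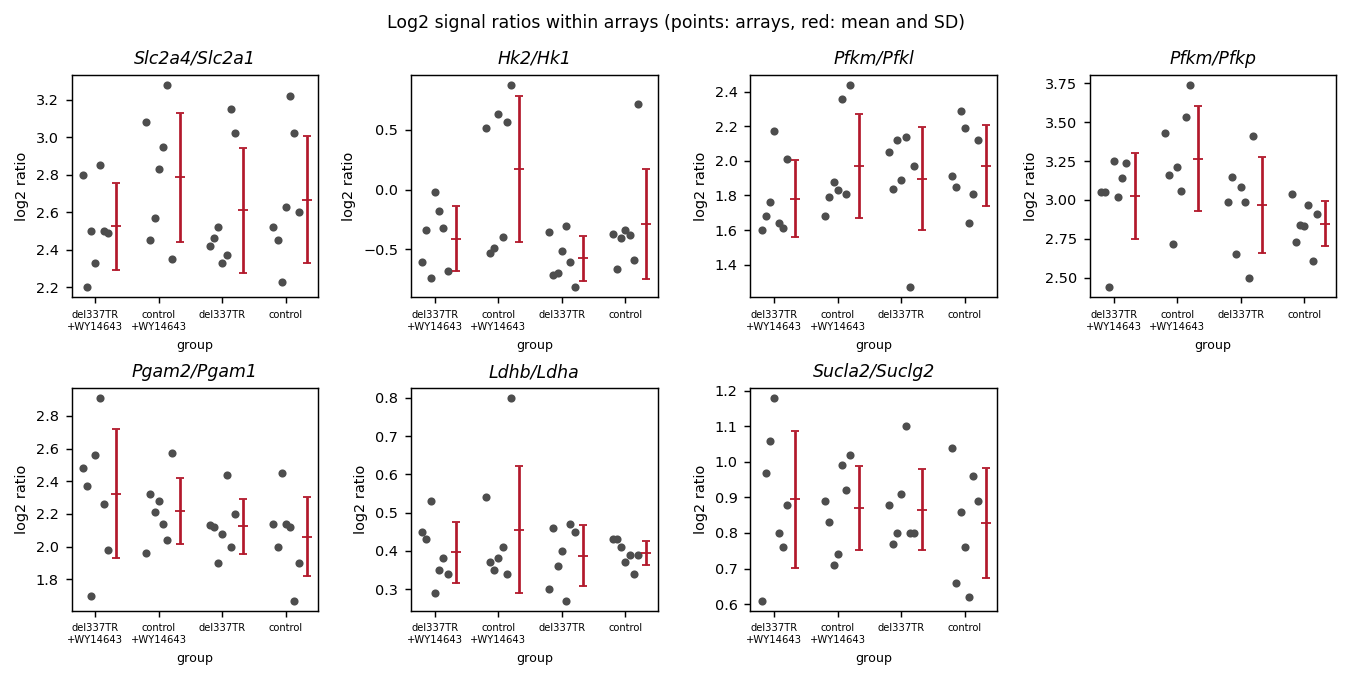
Log2 ratio of the signals of 2 genes of the same step within each array (y axes, which do not start at 0), by group (x axis). Points are arrays, and red marks give the mean and SD of 7. Hk2 to Hk1 splits the treated controls into 4 arrays above 0 and 3 below, with 1 untreated control above 0.

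Regulators and neighbours of the pathway were read from lists of further genes, none of which passed the threshold. Of the 6 kinases and phosphatases that switch the pyruvate dehydrogenase complex off and on, 0 passed in either direction. For del337TR against control under WY14643, 3 had an unadjusted p under 0.05, where 8.86% of all probe sets and 10.2% of all genes did. Pdk1, a kinase, ran from 2900.8 to 3737.7 (median 3183.1) in treated del337TR hearts, against 1496.6 to 3324.8 (median 2449) in treated controls, a log2 difference of 0.38 ± 0.14 (limma adjusted p = 0.436). The phosphatase gene Pdp2 stood at -0.50 ± 0.21 (limma adjusted p = 0.491) and Pdp1 at 0.28 ± 0.13 (limma adjusted p = 0.519). Without the 5 arrays of low Myh7 these were 0.03 ± 0.09, 0.07 ± 0.19 and 0.17 ± 0.13. Pdk4, the kinase known as a PPARalpha target, ran from 12684.8 to 12955.2 in treated controls, against 10663.2 to 13558.3 in untreated controls. WY14643 gave 0.10 ± 0.09 for Pdk4 in del337TR and 0.12 ± 0.09 in controls.

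Among 27 measured further genes of glucose use, 0 passed. Gpd2, the mitochondrial glycerol 3-phosphate dehydrogenase, ran from 132.3 to 187.6 (median 151.9) in treated del337TR hearts, against 181.8 to 407.8 (median 217.4) in treated controls. Of the treated del337TR hearts 6 of 7 lay below every treated control, and the log2 difference was -0.56 ± 0.15 (limma adjusted p = 0.403). It was -0.31 ± 0.13 without the 5 arrays. Adpgk, an ADP-dependent glucokinase, stood at 0.76 ± 0.24 in that comparison with signals from 22.2 to 160.5 in the treated groups, and Fbp1, fructose bisphosphatase, at 0.75 ± 0.25 for the interaction.

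Among 22 measured further genes of pyruvate and the citric acid cycle, 0 passed. Idh1, the cytosolic NADP-dependent isocitrate dehydrogenase, ran from 770.8 to 937.4 (median 814) in treated del337TR hearts, against 737.1 to 1512.5 (median 1307.1) in treated controls. Its log2 difference was -0.43 ± 0.13 (limma adjusted p = 0.427), and -0.02 ± 0.11 without the 5 arrays of low Myh7. Dhtkd1, a relative of oxoglutarate dehydrogenase, stood at -0.48 ± 0.17 for WY14643 in del337TR, and Lias, which makes the lipoyl group of these complexes, at 0.19 ± 0.08 for WY14643 in controls.

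Of 17 measured genes known as PPARalpha targets, 0 passed in either direction, with 11 higher and a median of 0.05 for WY14643 in del337TR and 11 higher and a median of 0.07 in controls. Ucp3, a mitochondrial carrier, ran from 368.1 to 945.3 (median 575.8) in treated del337TR hearts, against 545.6 to 1603.5 (median 967.4) in treated controls, a log2 difference of -0.87 ± 0.28 (limma adjusted p = 0.428). It was -0.24 ± 0.32 without the 5 arrays. Vnn1 stood at -0.54 ± 0.24 for WY14643 in del337TR, and Cyp4a14, a fatty acid hydroxylase gene, at 1.23 ± 0.63 for strain under WY14643, with signals of at most 46.3 in the treated groups.

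The spread of the members within groups was mostly small. The residual SD on the log2 scale was under 0.20 for 30 of 38 members and ran from 0.08 for Pkm to 0.34 for Idh3b. The median was 0.16 for glucose transport and glycolysis, 0.14 for the pyruvate dehydrogenase complex and 0.14 for the citric acid cycle. A few arrays held most extremes. Treated del337TR replicate 4 had the highest signal of all 28 arrays for 17 of 38 members, and treated control replicate 7 for 10. Untreated control replicate 6 had the lowest for 16 and untreated control replicate 2 for 6. The 99th percentile of all signals was 7853.02, 7516.23, 5698.59 and 5839 on these 4 arrays, in the same order, against a range of 5698.59 to 7853.02 over all arrays.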

How the data were processed

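Total RNA from frozen mouse hearts was labelled with biotin and measured on 1-colour arrays, 7 per group, per the labels' protocols. The deposited table holds 1 intensity per probe set and array on a linear scale. The submitters' processing notes name RMA, but the values are not logs, differ in distribution between arrays and share a 2% trimmed mean of 250, so they were treated as globally scaled signals. The software that made them is not given in the sources used here.

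Signals were floored at 0.1 (3 values were 0) and log2 transformed. Of 45101 probe sets, 64 array controls were left out. Group means over 28 arrays were fitted with limma 3.58.1 in R 4.3.3 (24 residual degrees of freedom), two-sided, with Benjamini-Hochberg adjustment over 45037 probe sets and a threshold of 0.05. The script was tested on simulated data with noise independent between probe sets. These data held no shift of whole arrays and no subgroup of arrays, so the test does not cover such features. Each p-value sets a difference against the spread between these arrays, whose number limits the precision. In the main limma fit that spread is pooled over the 4 groups, with the arrays of low Myh7 included. A gene is its brightest probe set. Values by group were given for members at an unadjusted p under 0.05. The highest and lowest member of each section, the isoform pairs and the 3 genes of smallest p in each further list were also named. Group values for other genes, Pdk4 and the promoters shown were chosen after values were seen. Ratios were tested by exact permutation of 7 against 7 arrays (3432 splits). The members and lists were chosen with earlier results of these data known. Promoter windows are from RefSeq.

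Alternatives were log2 of the value plus 16, quantile normalization, centring on the array median, only probe sets above the 40th percentile, eBayes with trend, only the groups compared, a replicate block, sex or an atrial score as covariate, the mean of a gene's probe sets, leaving out arrays, and limma for the ratios. The ratios were rerun only with 16 added, the mean of a gene's probe sets, arrays left out, and limma with or without the replicate block.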

Additional observations from a re-analysis of the deposited data

Results flagged for a closer look

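Within each group of 7, each member's highest and lowest signals were set against Dixon's criterion for a single far value. It marked 17 of 152 groups, where chance marks about 5%, and the members on an array are not independent of each other.

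Treated del337TR replicate 4 was far above its group for Eno3 (11554.5, others at most 9727), Cs (13034.3, others at most 10416.2), Idh3a (8535, others at most 7570.7) and Idh3g (9300.3, others at most 7905.7). Replicate 3 of that group was far above for Pfkp (1354, others at most 891.3) and far below for Dlst (4885.9, others at least 5500.8). Treated control replicate 7 was far above its group for Slc2a1 (801, others at most 534.4), Eno3 (12488.9, others at most 10477.6) and Idh3g (9197.6, others at most 8320.9). Treated control replicate 2 was far below for Mdh1 (8777.7, others at least 11729.1).

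Untreated del337TR replicate 5 was far above its group for Sucla2 (8718.7, others at most 7231.8) and Mdh1 (13348.4, others at most 11343.2). In the same group replicate 7 was far below for Idh3b (4962.5, others at least 6772.6) and replicate 1 for Sdhd (5929.7, others at least 6971.9). Untreated control replicate 7 was far below its group for Hk1 (2172.5, others at least 3066.5), and it is 1 of the 5 arrays of low Myh7. Untreated control replicate 6 was far below for Suclg2 (3270.8, others at least 4009.7), and replicate 3 far above for Fh1 (8698.6, others at most 7095.1). The part of the arrays' scaling in these values was not tested.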

How the results depend on the processing

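Of 2323 values recomputed under the alternatives, 2262 kept their place within the limits set and 38 counts or medians moved further. Another 2 values passed the threshold newly, both for the Pfkm to Pfkp ratio with WY14643 in controls. The other 21, values of differences or ratios and none past the threshold, turned sign. No member passed under any alternative run. With 16 added to each signal, 1 probe set passed for WY14643 in controls and 1 for the interaction, and with only the groups compared 3 passed for WY14643 in controls, where the main count is 0. For strain without WY14643 the main count of 1 was 0 with the filter on dim probe sets, only the groups compared, the replicate block, sex or the atrial score. Without the 5 arrays of low Myh7 it was 0, and it was 2 for the treatment of controls and 5 between the treated strains, while the median of the pyruvate dehydrogenase complex for strain under WY14643 went to 0.00 and that for the interaction to 0.05 (main -0.08). Pfkp for WY14643 in controls turned to 0.02 there. So did the ratios of Hk2 to Hk1 (-0.01 for WY14643 in controls, 0.06 for strain under WY14643), Ldhb to Ldha (-0.02 and 0.02), Slc2a4 to Slc2a1 (-0.02 for WY14643 in controls) and Pfkm to Pfkp (0.05 for strain under WY14643). With the mean of a gene's probe sets, Pfkm to Pfkl turned to 0.04 between untreated strains, Pfkm to Pfkp to -0.19 for WY14643 in del337TR and Sucla2 to Suclg2 to -0.12 for WY14643 in controls. Quantile normalization turned the medians of the citric acid cycle for strain without WY14643 to -0.03 and of glycolysis for the interaction to 0.02, and the atrial score turned that of the pyruvate dehydrogenase complex for strain without WY14643 to 0.01. Centring on array medians gave a median of -0.15 for glycolysis in the interaction (main -0.05). Leaving out 1 array at a time gave counts of 0 to 1 for strain without WY14643, for WY14643 in controls (1 without untreated del337TR replicate 6) and for WY14643 in del337TR (1 without untreated control replicate 3). Ratios that turned sign with 1 array left out ran, between untreated strains, over -0.15 to 0.03 (Slc2a4 to Slc2a1), -0.13 to 0.03 (Pfkm to Pfkl) and -0.02 to 0.01 (Ldhb to Ldha). For WY14643 in del337TR they ran over -0.14 to 0.01 (Slc2a4 to Slc2a1), -0.02 to 0.16 (Pfkm to Pfkp), -0.02 to 0.03 (Ldhb to Ldha) and -0.02 to 0.08 (Sucla2 to Suclg2), and for strain under WY14643 over -0.02 to 0.07 (Sucla2 to Suclg2). The cause of these turns was not tested.

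Whether the replicate numbers pair the samples was not settled, and the main fits treated the arrays as unpaired. Over 42 pairs of same-numbered arrays the correlation of deviations ran from -0.12 to 0.19 (median 0.03). Of 28 arrays, 9 correlated best with an array of their own number, and the count to be met without pairing was not worked out. With the replicate block, the Pfkm to Pfkp ratio for WY14643 in controls had a limma adjusted p of 0.0363, against 0.15 by limma without the block (added after the data were seen) and an exact permutation adjusted p of 0.294. For members with an unadjusted p under 0.05, the lowest adjusted p over the alternatives ran from 0.251 to 0.591. Arrays per group limit what differences can be seen, and the dimmest probe sets lie near the floor.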
